A study of Mus musculus with 6 samples.

Results

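The growth hormone, STAT5 and IGF1 axis was read in the hearts of mice that lack the NBCe1-B and NBCe1-C variants of the sodium/bicarbonate cotransporter gene *Slc4a4* (KOb/c) and of wild-type (WT) mice. The 10 genes described here are the growth hormone receptor *Ghr*, its kinase *Jak2*, the transcription factors *Stat5a* and *Stat5b*, the feedback inhibitors *Socs2* and *Cish*, the ligand *Igf1*, its receptor *Igf1r* and the binding proteins *Igfbp4* and *Igfbp5*. They were picked by name, with earlier results of this same KOb/c and WT comparison in view, and all 10 were found among the 16018 genes of the deposited table. Their differences between the genotypes are therefore given as a description, with no test.

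The libraries came from the whole hearts of 3 female KOb/c and 3 female WT mice, all 4-5 weeks of age, on a C57BL/6J background and born to heterozygous parents. In the KOb/c mouse both variants are missing from birth in the whole body and not only in cardiomyocytes, so that a difference in the heart and a difference in circulating hormones cannot be told apart here. Neither growth hormone nor circulating IGF1 was measured in these libraries. Each value is a normalized count, that is, the reads on a gene divided by a size factor of the library, and is given as mean ± SD of 3 animals per genotype.

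Growth hormone reaches the heart from the pituitary and binds its receptor, which activates the kinase JAK2 bound to it. JAK2 phosphorylates STAT5A and STAT5B, a pair of closely related proteins that then move to the nucleus, and much of this control lies in phosphorylation, which RNAseq does not see. Among the best known STAT5 target genes are *Socs2* and *Cish*, whose products dampen the signal, and *Igf1*, most of which in the circulation is made by the liver. IGF1 acts on the receptor IGF1R, and IGF binding proteins hold it in the matrix or keep it from the receptor.

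The sequences bear on how far the values of *Stat5a* and *Stat5b* can be separated. The coding sequences of the 2 genes in GENCODE M21 (GRCm38), of 2394 and 2361 nucleotides, were identical at 90.7% of 2288 aligned positions. The longest stretch with no difference was 324 nucleotides, coding bases 571 to 894 of both. Of the 50-base windows of the *Stat5a* transcript, 17.10% also occurred in a *Stat5b* transcript, and of the 150-base windows 5.06%. The first pair of lines below is the 60-base window with the most differences, 19, at coding bases 85 to 144, where a read has its gene written into it. The second pair is a window with the median number of differences, 2, at coding bases 1140 to 1199. Capitals mark the bases that differ between the 2 genes.
Stat5a, bases 85 to 144: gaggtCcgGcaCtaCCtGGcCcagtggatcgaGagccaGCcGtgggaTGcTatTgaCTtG
Stat5b, bases 85 to 144: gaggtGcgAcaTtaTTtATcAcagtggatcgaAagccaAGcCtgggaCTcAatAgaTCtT
Stat5a, bases 1140 to 1199: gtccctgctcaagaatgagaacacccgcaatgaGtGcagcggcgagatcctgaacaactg
Stat5b, bases 1140 to 1199: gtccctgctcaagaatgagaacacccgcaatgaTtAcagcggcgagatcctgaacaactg
How the authors' counting treated reads that fit both genes is not given in the sources used here, and the share of such reads was not measured, so the exact split between the 2 is uncertain.

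STAT5 binds DNA at the palindrome TTCNNNGAA, which reads the same on both strands. It was searched for in RefSeq promoters (GRCm38.p6), each running from 250 bases before to 50 bases after a gene's start. The motif was present in 8.30% of 32851 promoters, and 0.457% held it at least 2 times. Of the 9 genes of the axis with a promoter entry, only *Cish* held it. *Socs2* had no promoter entry, so it was not searched. *Cish* had 2 matches separated by 2 bases, within chr9:107296654-107296683 on the plus strand. The first was at base 1 and the second at base 12, counted from the start in its RefSeq promoter entry. GENCODE M21 places the start of *Cish* upstream of this stretch, at chr9:107296026. The stretch is shown because it is the only place in these promoters where the motif was read, and capitals mark the 2 matches.
Cish: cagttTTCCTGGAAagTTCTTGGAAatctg
A match is a description of letters, and STAT5 binding was not measured.

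The libraries held between 41364857 and 49100802 reads on genes, and the KOb/c libraries were all deeper than the WT ones. The targeted gene *Slc4a4* had 264.0, 944.8 and 268.7 normalized counts in KOb/c and 675.1, 822.2 and 788.8 in WT hearts, summed over all of its variants. The library labelled KOb/c replicate 2 was above each WT library for this gene, so differences are given with and without it. Whether that animal lacks both variants was not tested, and it is counted in KOb/c as labelled. Which exons the allele removes was not used here. Cardiomyocyte markers, 8 of 8 listed, summed to between 2773238 and 3096704 in KOb/c and between 2483848 and 2584687 in WT libraries, with 4 genes higher and 4 lower in KOb/c. The 6 endothelial markers summed to between 40605 and 43704 in KOb/c and between 37145 and 39502 in WT libraries. The sums of the 8 fibroblast, 8 macrophage and 6 smooth muscle and pericyte markers, and of the 4 adipocyte and 4 lymphocyte markers with a value, overlapped between genotypes, and 0 of 4 liver markers had a value. The part of depth and of these cell types in the values of the axis was not tested. *Igf1* and the binding proteins are made mainly by nonmuscle cells, and in RNA of a whole heart fewer cells of a type and less RNA per cell cannot be told apart.

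**Figure D1:**
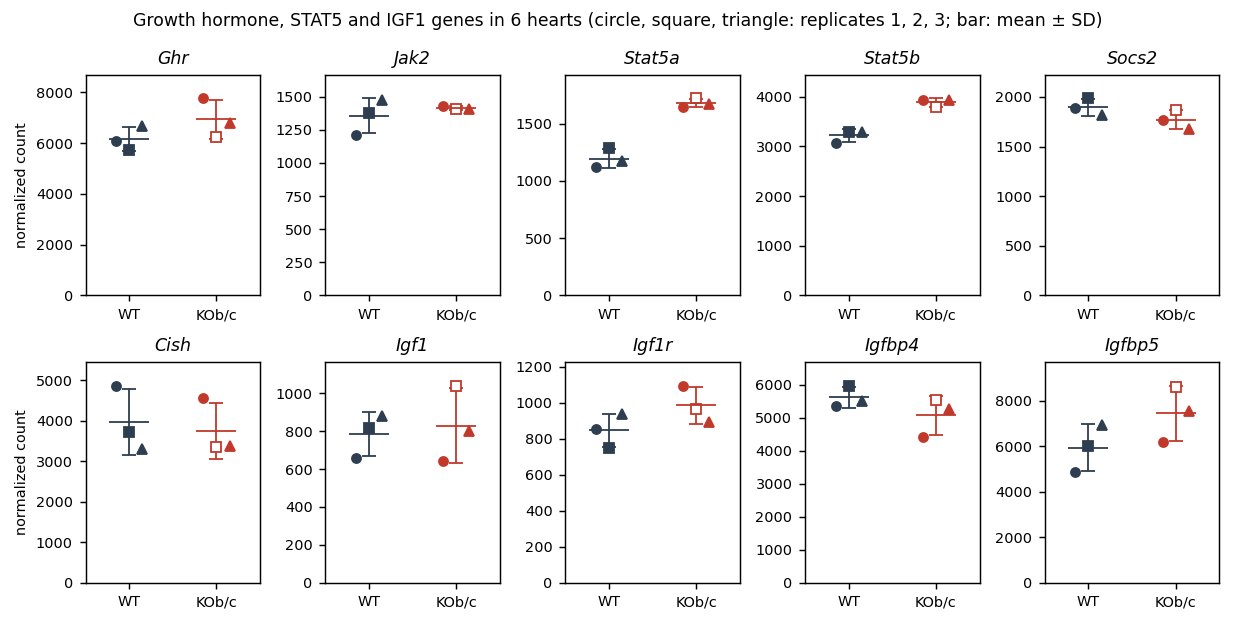
Normalized counts of the 10 genes (vertical axes, each from 0) in WT (dark) and KOb/c (red) hearts, with 1 point per animal and bars at the mean ± SD of 3; the open square is the library labelled KOb/c replicate 2. The KOb/c and WT points are apart for Stat5a and Stat5b, and overlap for the other 8 genes.

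The transcription factors were the part of the axis in which the genotypes stood apart. All KOb/c libraries were above all WT libraries for 2 of the 10 genes, *Stat5a* and *Stat5b*, and below for 0, where this was so for 15.6% and 14.6% of all genes tested. As the 10 were chosen on this comparison, nothing is read from these shares. *Stat5a* (ENSMUSG00000004043) had normalized counts of 1649.5, 1722.2 and 1669.1 in KOb/c replicates 1, 2 and 3, and of 1119.7, 1283.8 and 1174.5 in WT replicates 1, 2 and 3. Every KOb/c heart was above every WT heart, and the lowest KOb/c value lay well above the highest WT value. The means were 1680 ± 37.7 in KOb/c and 1193 ± 83.5 in WT, a 1.41-fold level in KOb/c with a log2 fold change of 0.50 (standard error 0.07) and of 0.48 without the library labelled KOb/c replicate 2. Of all genes tested, 7.81% had a larger log2 fold change in either direction.

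*Stat5b* (ENSMUSG00000020919), which in many tissues carries much of the response to growth hormone, had normalized counts of 3935.1, 3788.7 and 3936.7 in KOb/c hearts and of 3079.4, 3298.3 and 3292.5 in WT hearts. Again all KOb/c values were above all WT values, with a narrower gap than for *Stat5a*. The means were 3887 ± 85.0 and 3223 ± 125, a 1.21-fold level in KOb/c (log2 fold change 0.27, standard error 0.06, and 0.29 without the library labelled KOb/c replicate 2). A larger log2 fold change in either direction was found for 28.5% of genes. The coefficient of variation was 2.24% in KOb/c and 7.0% in WT hearts for *Stat5a*, and 2.19% and 3.87% for *Stat5b*, where counting of reads alone gives 2.64% and 1.68%.

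The 2 genes lie next to each other on chromosome 11 and are read in opposite directions, *Stat5b* from chr11:100780731-100850724 on the minus strand and *Stat5a* from chr11:100859351-100885169 on the plus strand, with starts 8.6 kb apart. The last 72 nucleotides of *Stat5a* overlap the end of *Stat3*, which is read from the other strand, and the strand setting of the counting is not given in the sources used here. Of the 15 genes tested that lie within 200 kb of the pair, *Stat5a* and *Stat5b* were the 2 whose KOb/c values were all above WT, 2 were all below (*Rab5c*, log2 fold change -0.23, and *Coasy*, -0.18), and 11 overlapped. Their neighbor *Stat3*, which transmits signals of the IL-6 family, was at 0.25 (standard error 0.10) with overlapping groups. *Ghdc*, on the other side of *Stat5b*, was at -0.03 (standard error 0.08).

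**Figure D2:**
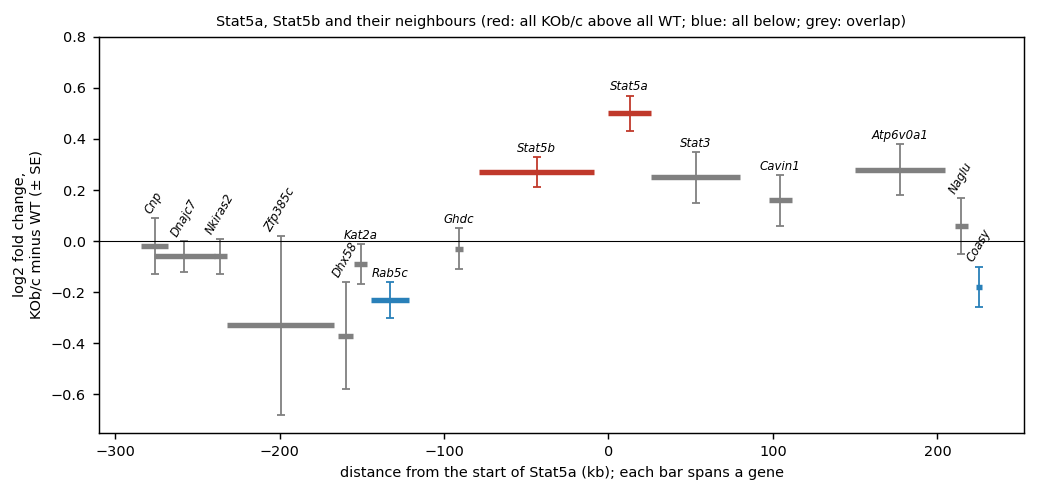
Log2 fold change (KOb/c minus WT, vertical axis, ± standard error) of the 15 genes tested around Stat5a against the distance from its start in kb, each bar spanning 1 gene. Stat5b at 0.27 and Stat5a at 0.50 are the red bars, with all KOb/c above all WT, and the blue bars are Rab5c and Coasy, with all KOb/c below.

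Upstream of STAT5, the receptor and its kinase did not separate the genotypes. *Ghr* (ENSMUSG00000055737) had normalized counts of 7768.9, 6254.2 and 6779.1 in KOb/c and of 6094.3, 5743.2 and 6656.1 in WT hearts. KOb/c replicates 1 and 3 were the 2 highest of the 6, and replicate 2 lay below WT replicate 3. The means were 6934 ± 769 and 6165 ± 460, with a log2 fold change of 0.17 (standard error 0.09), or 0.24 without the library labelled KOb/c replicate 2. *Jak2* (ENSMUSG00000024789) had 1428.1, 1406.9 and 1405.7 normalized counts in KOb/c and 1215.0, 1379.4 and 1476.6 in WT hearts. The 3 KOb/c hearts were nearly equal and lay inside the WT range, which held both the lowest and the highest of the 6 values, and the log2 fold change of *Jak2* was 0.06 (standard error 0.08), or 0.07 without the library labelled KOb/c replicate 2.

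The STAT5 target genes that serve as its feedback inhibitors overlapped between genotypes. *Socs2* (ENSMUSG00000020027), whose product limits growth hormone signaling and whose loss in mice gives overgrowth, had normalized counts of 1764.6, 1869.0 and 1678.8 in KOb/c and of 1887.0, 1986.5 and 1812.8 in WT hearts. The 2 lowest values were from KOb/c and the 2 highest from WT hearts, with an overlap in the middle. Its means were 1771 ± 95.3 and 1895 ± 87.2, with a log2 fold change of -0.10 (standard error 0.07), or -0.14 without the library labelled KOb/c replicate 2.

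*Cish* (ENSMUSG00000032578), the gene with the motif pair shown above, had 4552.4, 3341.1 and 3366.5 normalized counts in KOb/c and 4868.1, 3728.7 and 3290.4 in WT hearts. Replicate 1 was the highest of its group in both genotypes, and the remaining 4 hearts were interleaved. The means were 3753 ± 692 and 3962 ± 814, and the log2 fold change was -0.07 (standard error 0.16), or 0.00 without the library labelled KOb/c replicate 2. *Cish* shares its position with the genes Gm17040 and Gm17041 of the opposite strand, so part of its reads could belong to them.

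Ratios taken inside a library do not depend on its scaling, and the ratios given here were chosen after the values were seen. The ratio of *Socs2* to *Stat5a* was 1.07, 1.09 and 1.01 in KOb/c and 1.69, 1.55 and 1.54 in WT hearts. Each KOb/c heart thus had fewer *Socs2* reads per *Stat5a* read than each WT heart. Both STAT5 genes were already apart, so the ratios of *Socs2* and *Cish* to them largely restate that difference and are no separate result. How often ratios between other genes are apart was not measured. The ratio of *Cish* to *Stat5a* was 2.76, 1.94 and 2.02 in KOb/c and 4.35, 2.90 and 2.80 in WT hearts, also without overlap but with only a small gap. Against *Stat5b* the ratio of *Socs2* stayed apart, at 0.448, 0.493 and 0.426 in KOb/c and 0.613, 0.602 and 0.551 in WT hearts. The ratio of *Cish* to *Stat5b* overlapped, with 1.16 in KOb/c replicate 1 above 1.13 and 0.999 in WT replicates 2 and 3. The ratio of *Igf1* to *Stat5b* overlapped too, at 0.164, 0.275 and 0.204 in KOb/c and 0.214, 0.247 and 0.268 in WT hearts. Between the transcription factors themselves, the ratio of *Stat5a* to *Stat5b* was 0.419, 0.455 and 0.424 in KOb/c and 0.364, 0.389 and 0.357 in WT hearts, higher in every KOb/c heart.

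**Figure D3:**
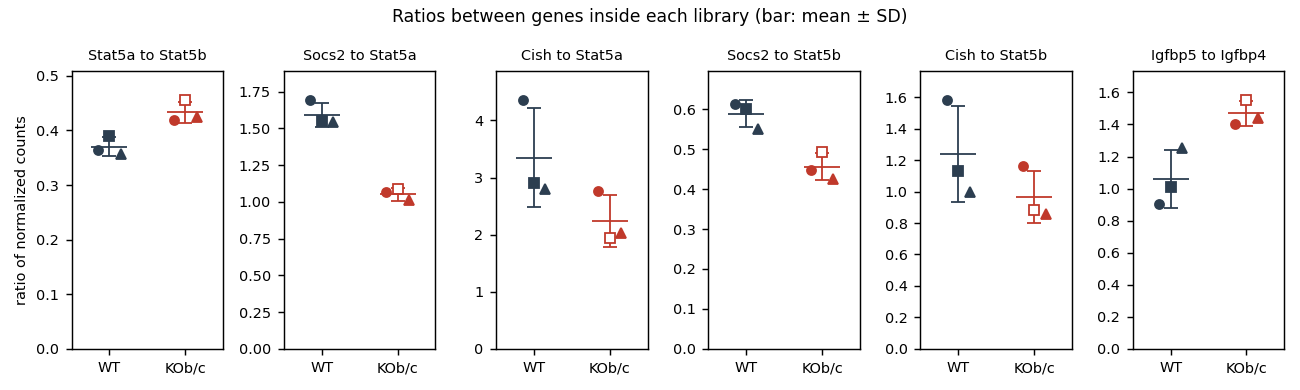
Ratios of normalized counts between 2 genes of the axis inside each library (vertical axes, each from 0), with WT dark, KOb/c red, 1 point per animal (circle, square and triangle for replicates 1, 2 and 3, open square for the library labelled KOb/c replicate 2) and bars at the mean ± SD of 3. Socs2 per Stat5a was 1.05 ± 0.0421 in KOb/c and 1.59 ± 0.0808 in WT. The 6 ratios drawn, of 10 computed, were chosen after the values were seen. Among them the genotypes overlap only in Cish to Stat5b. Of those not drawn, Igf1 to Stat5b, Igf1 to Igf1r and Jak2 to Ghr overlap too.

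The ligand and the receptor of the IGF1 arm overlapped between genotypes. *Igf1* (ENSMUSG00000020053) had normalized counts of 645.1, 1041.0 and 803.5 in KOb/c and of 658.7, 815.0 and 881.6 in WT hearts. The KOb/c group held both the lowest and the highest heart, and the spread within a genotype was larger than the difference between them. The means were 829.9 ± 199 and 785.1 ± 114, with a log2 fold change of 0.06 (standard error 0.17), which became -0.11 without the library labelled KOb/c replicate 2. *Igf1* has an antisense gene, Igf1os, whose reads are not separated from it if strand was not used.

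*Igf1r* (ENSMUSG00000005533), the tyrosine kinase receptor through which IGF1 acts, had normalized counts of 1095.7, 967.6 and 893.1 in KOb/c and of 852.3, 750.5 and 935.3 in WT hearts. The 2 highest values were from KOb/c hearts, and the third KOb/c heart lay below WT replicate 3. The means were 985.4 ± 102 and 846.0 ± 92.5 (log2 fold change 0.22, standard error 0.11, and 0.23 without the library labelled KOb/c replicate 2). *Igf1r* has the longest transcript of the 10, of 11409 nucleotides, and its log2 fold change was -0.04 once length and GC content had been corrected for.

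The log2 fold changes of the binding proteins had opposite signs, and both genes overlapped between genotypes. *Igfbp4* (ENSMUSG00000017493), whose product withholds IGF from its receptor, had 4396.6, 5538.8 and 5258.2 normalized counts in KOb/c and 5362.9, 5969.9 and 5513.5 in WT hearts. *Igfbp5* (ENSMUSG00000026185), whose product binds to the matrix, had 6173.0, 8608.0 and 7569.3 in KOb/c and 4857.8, 6032.2 and 6919.0 in WT hearts. For *Igfbp4* the 2 lowest hearts were KOb/c, and for *Igfbp5* the 2 highest were. The log2 fold changes were -0.15 (standard error 0.09) and 0.33 (standard error 0.15), from means of 5065 ± 595 against 5615 ± 316 for *Igfbp4* and of 7450 ± 1222 against 5936 ± 1034 for *Igfbp5*. Without the library labelled KOb/c replicate 2 they were -0.22 and 0.22. With length and GC content corrected for they were -0.15 and 0.18, and -0.21 and 0.07 with that library also left out. Ratios of these genes were likewise chosen after the values were seen, and how often ratios between other genes are apart was not measured. They are not corrected for length, and the transcript of *Igfbp5* is the longer, 6006 against 3831 nucleotides for *Igfbp4*. The ratio of *Igfbp5* to *Igfbp4* inside a library was apart between genotypes, at 1.40, 1.55 and 1.44 in KOb/c and 0.906, 1.01 and 1.25 in WT hearts. The same held for *Igfbp5* to *Igf1*, at 9.57, 8.27 and 9.42 in KOb/c and 7.37, 7.40 and 7.85 in WT hearts, whereas the ratios of *Igf1* to *Igf1r* and of *Jak2* to *Ghr* overlapped.

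Within both genotypes, *Igf1*, *Cish* and *Igfbp5* had a wider spread than the STAT5 genes. Their coefficients of variation were 24.0%, 18.4% and 16.4% in KOb/c and 14.6%, 20.6% and 17.4% in WT, where counting alone gives between 1.22% and 3.52% over the 10 genes. *Igfbp4* varied by 11.8% in KOb/c and 5.63% in WT hearts. In both genotypes replicate 1 had the lowest *Igf1*, *Igfbp4* and *Igfbp5* and the highest *Cish* of its group. The mice that share a number are different animals, and KOb/c replicate 1 also had the lowest sum of adipocyte markers, 82.4, where the other 5 libraries had between 1244.7 and 5028.5. The part of attached fat in these values was not tested.

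Levels of different genes were compared per kb of the longest transcript, as the mean over the 6 libraries. From high to low, they were 1569 normalized counts per kb for *Ghr*, 1394 for *Igfbp4* and 1114 for *Igfbp5*. The STAT5 target *Cish* followed with 821, *Stat5b* with 682, *Socs2* with 432 and *Stat5a* with 363. The lowest were *Jak2* with 275, *Igf1* with 115 and *Igf1r* with 80.3. Per kb, *Ghr* and both binding proteins were thus the most abundant, and the ligand and its receptor the least. The order depends on the transcript taken as the length: over all annotated exonic bases *Ghr* had 723 normalized counts per kb, below 1209 for *Igfbp4* and 1114 for *Igfbp5*, and *Socs2* had 192, close to 201 for *Stat5a*.

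All 10 genes passed the filter of a mean of at least 10 normalized counts. By limma with Benjamini-Hochberg adjustment, the adjusted p-value was under 0.05 for 0 of 16016 genes (0%), and for 0 of the 10. At an unadjusted p-value under 0.05, limma had 3764 genes and edgeR 3837, and edgeR also called 0. DESeq2 on the recovered reads called 1587 of 11979 genes (13.2%), and 2 of the 10, *Stat5a* and *Stat5b*. Without the library labelled KOb/c replicate 2, DESeq2 called 1195 genes (10.8% of those with an adjusted p-value), the same 2 of the axis among them. As above, nothing is read from the counts among the 10.

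The number of genes of the axis whose groups were apart was 2 with all libraries and 3 without KOb/c replicate 1 or KOb/c replicate 3. The share over all genes is not given for the counts of 3, so nothing is read from them. The number moved most with 2 other libraries. Without the library labelled KOb/c replicate 2, it was 5 of 10, with *Ghr* above WT and *Socs2* and *Igfbp4* below in addition to *Stat5a* and *Stat5b*, where 40.2% of all genes were apart. Without WT replicate 3, it was 7 of 10, with *Ghr*, *Jak2*, *Igf1r* and *Igfbp5* above and *Socs2* below in addition to the STAT5 genes, where 40.8% of all genes were apart. *Stat5a* and *Stat5b* themselves kept their direction in each of 19 settings, with log2 fold changes between 0.42 and 0.55 and between 0.17 and 0.29.

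Transcript length moved with the fold changes over the whole table, with a Spearman correlation of 0.45 over 16016 genes, which are no replicates of each other. The median length of the 10 genes was 4863 nucleotides against 3188 over all genes tested. Their median log2 fold change was 0.12, against 0.00 over all genes, and -0.03 against 0.01 after a correction for length and GC content. The corrected value was 0.50 for *Stat5a*, the same as before correction, and 0.17 for *Stat5b*. With each library rescaled to the same total, the median over all genes moved to -0.08.

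**Figure D4:**
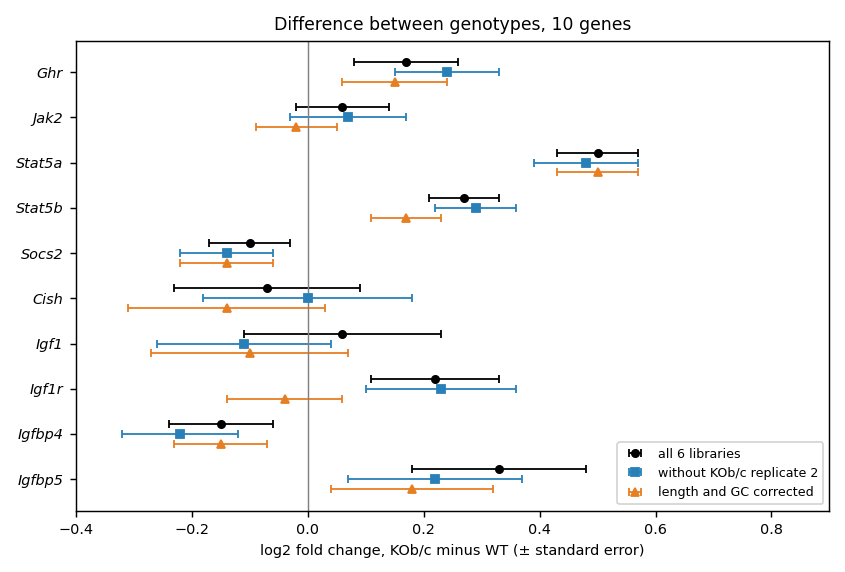
Log2 fold change (KOb/c minus WT, horizontal axis, ± standard error) of the 10 genes over all 6 libraries (black), without the library labelled KOb/c replicate 2 (blue) and with transcript length and GC content corrected for (orange). Stat5a stays between 0.48 and 0.50, Stat5b between 0.17 and 0.29, and Igf1r goes from 0.22 to -0.04 with the correction.

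The wider pathway was read in 5 lists of 105 further genes, of which 103 were tested and *Stat4* and *Osm* had no value. The lists were chosen with earlier results of these data known. Nothing is therefore read from their counts beside the shares of all genes, here or for each list below. By limma with Benjamini-Hochberg adjustment 0 of the 103 were called in either direction. By DESeq2, 19 of the 96 with an adjusted p-value were called higher in KOb/c and 3 lower, where 8.22% and 5.03% of all genes were. KOb/c was all above WT for 28, all below for 8 and overlapping for 67, where 15.6% of all genes were above and 14.6% below. The median log2 fold change of the 103 was 0.16, and 0.09 after the correction for length and GC content.

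Among 14 IGF ligands, binding proteins and their proteases, 13 had a log2 fold change above 0, where 7879 of all 16016 genes did. DESeq2 called 2 higher and 1 lower of 10, where 8.22% and 5.03% of all genes were. *Igf2r*, whose product carries IGF2 to the lysosome, was at 8568 ± 942 in KOb/c and 6399 ± 153 in WT hearts, with a log2 fold change of 0.42 (adjusted p = 0.0815 by limma and 0.000598 by DESeq2). *Insr*, the insulin receptor, was at 5594 ± 598 and 4366 ± 368 (adjusted p = 0.0901 by limma and 0.00951 by DESeq2). *Igfbp7*, an endothelial binding protein of low affinity for IGF, was at 6915 ± 378 and 8334 ± 273, below WT in every KOb/c heart (adjusted p = 0.0834 by limma and 0.00844 by DESeq2). With length and GC content corrected for, the log2 fold changes of *Igf2r*, *Insr* and *Igfbp7* went from 0.42, 0.36 and -0.27 to 0.19, 0.12 and -0.09. *Htra1*, a secreted protease, was above WT in each KOb/c heart with a log2 fold change of 0.11, or 0.22 so corrected (adjusted p = 0.318 by limma and 0.345 by DESeq2). *Pappa*, named after its values were seen because its product cleaves IGFBP4, had 56.6, 55.8 and 50.6 normalized counts in KOb/c and 18.4, 21.8 and 41.2 in WT hearts (log2 fold change 1.06, adjusted p = 0.104 by limma). It had no adjusted p-value by DESeq2, and the length and GC correction took it to 0.80. The ligand *Igf2*, also named after its values were seen, overlapped between genotypes, at 3662.1, 3973.7 and 4248.9 in KOb/c and 4196.0, 2440.8 and 3896.7 in WT hearts.

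Of 27 JAK-STAT partners and negative regulators, 14 were above 0 and 13 below, with a median log2 fold change of 0.02. Against 8.22% of all genes called higher and 5.03% called lower, DESeq2 called 2 of 24, both higher. These were *Pias1*, an inhibitor of activated STAT proteins (log2 fold change 0.35, adjusted p = 0.0885 by limma and 0.0176 by DESeq2), and *Il6st*, the signal-transducing receptor of the IL-6 family (0.30, adjusted p = 0.120 by limma and 0.0374 by DESeq2). *Ptpn2*, a phosphatase of JAK and STAT proteins, was below WT in every KOb/c heart (-0.25, adjusted p = 0.192 by limma and 0.177 by DESeq2), and *Socs4* was above (0.23, adjusted p = 0.240 by limma and 0.208 by DESeq2). Without KOb/c replicate 1 these 2 were at -0.15 and 0.12. The length and GC correction took *Il6st* to 0.07, *Socs4* to 0.08 and *Pias1* to 0.25. *Stat2*, *Stat3* and *Stat6* overlapped between genotypes, as did *Socs1* and *Socs3*.

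In the 11 further STAT5 target genes tested, 1 had all KOb/c above all WT, where 15.6% of all genes did, and 10 overlapped. *Pim3*, a survival kinase, had 5047.6, 3011.3 and 3893.3 normalized counts in KOb/c and 2550.8, 2856.6 and 3002.7 in WT hearts (log2 fold change 0.48, adjusted p = 0.130 by limma and 0.0133 by DESeq2), and its log2 fold change was 0.29 without KOb/c replicate 1. The other DESeq2 call was *Bcl6*, a repressor that STAT5 is known to hold down, named after its values were seen: it had 1114.5, 857.0 and 964.9 in KOb/c and 489.7, 861.7 and 728.0 in WT hearts (log2 fold change 0.53, adjusted p = 0.150 by limma and 0.0445 by DESeq2). The library labelled KOb/c replicate 2 lay just below WT replicate 2 for this gene. *Ccnd1* and *Myc* were below 0, at -0.35 and -0.14, with overlap.

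Downstream of IGF1R, 17 of 39 genes of IGF1 receptor, PI3K-AKT-mTOR and MAPK signaling were all above WT in KOb/c and 5 all below, where 15.6% and 14.6% of all genes were. DESeq2 called 10 higher and 2 lower of the 39, where 8.22% and 5.03% of all genes were. The largest differences by the naming rule were *Pik3r1*, the regulatory subunit of PI3K (log2 fold change 0.61, adjusted p = 0.144 by limma and 0.161 by DESeq2), *Gsk3b*, a kinase that AKT inhibits (0.54, adjusted p = 0.0815 by limma and 0.000137 by DESeq2), *Foxo3*, a transcription factor that AKT excludes from the nucleus (0.51, adjusted p = 0.144 by limma and 0.158 by DESeq2), and *Mtor*, the kinase at the center of growth control (0.45, adjusted p = 0.0815 by limma and 0.000302 by DESeq2). KOb/c replicate 1 carried much of *Pik3r1* and *Foxo3*, whose log2 fold changes without it were 0.30 and 0.26. With length and GC content corrected for, *Gsk3b* was at 0.33 and *Mtor* at 0.24. The insulin receptor substrates *Irs1* and *Irs2*, named after their values were seen, had log2 fold changes of 0.76 and 0.75 with overlapping groups (adjusted p = 0.0967 and 0.105 by limma, 0.00274 and 0.00650 by DESeq2). Without KOb/c replicate 1 the 2 were at 0.57 and 0.55, and with length and GC content corrected for at 0.52 and 0.61. *Akt1* and *Akt2* overlapped. The median length of this list was 5099 nucleotides, and its median log2 fold change was 0.19 before and 0.07 after the correction for length and GC content.

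FOXO target genes are known to rise when IGF1 and insulin signaling is low, and that signaling was not measured here. Of the 12 listed, 11 were above 0, where 7879 of all 16016 genes were. DESeq2 called 3, all higher, where 8.22% of all genes were. *Fbxo32*, a ubiquitin ligase of muscle wasting, was at 9162 ± 1486 in KOb/c and 5658 ± 1266 in WT hearts (log2 fold change 0.71, adjusted p = 0.0832 by limma and 0.000534 by DESeq2). *Sesn3*, a sestrin that restrains mTOR, was at 0.46 (adjusted p = 0.0815 by limma and 0.00107 by DESeq2), and *Cdkn1b*, a brake on the cell cycle, at 0.24 (adjusted p = 0.0851 by limma and 0.0240 by DESeq2). *Trim63*, the ligase often read beside *Fbxo32*, overlapped between genotypes with a log2 fold change of 0.13. The median of this list was 0.20 before and 0.21 after the correction for length and GC content, which took *Fbxo32* to 0.53, *Sesn3* to 0.24 and *Cdkn1b* to 0.18.

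**Figure D5:**
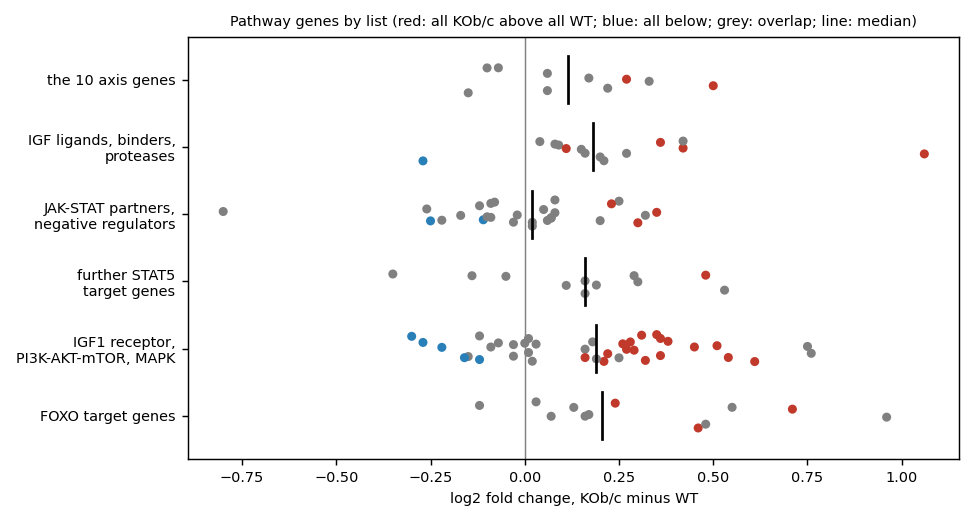
Log2 fold change (KOb/c minus WT, horizontal axis) of each gene in the axis and in the 5 pathway lists, 1 point per gene, with black lines at the list medians. Red points have all KOb/c above all WT, blue all below and grey overlap; the medians run from 0.02 in the JAK-STAT list to 0.20 in the FOXO list.

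Among the genes whose pattern over the 6 libraries was most like that of *Igf1* were *Lgi2* (Pearson r = 0.989), Gm12439 (0.976), *Zfp58* (0.974) and *Heatr1* (0.974), out of 11931 genes with a mean of at least 100. For *Socs2* they were *Tango2* (0.990), *Lzic* (0.990), *Unc119b* (0.986), *Habp4* (0.984) and *Cyhr1* (0.981). These correlations describe 6 points that share depth and scaling, and r reached at least 0.95 for 16 genes with *Igf1* and for 24 with *Socs2*. None of the genes named was a gene of the axis.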

How the data were processed

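Hearts of 3 female KOb/c and 3 female WT mice were profiled by RNAseq of total RNA, with paired reads (Illumina HiSeq). The authors deposited a normalized signal for 16018 genes, that is, read counts divided by a size factor per library. The submitters' processing notes name Trimmomatic 0.36, STAR 2.5.2b, featureCounts of Subread 1.5.2, DESeq2 and GRCm38. Whether strand was used, and how reads fitting several genes were counted, is not given in the sources used here. Genotype and replicate came from the sample labels, and each column was matched by the animal name in them.

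Dividing by the value of 1 read gave whole reads, within 0.01 read, for 100% of the values in each library. The 16016 genes whose mean was 10 normalized counts or more were fitted with limma 3.58.1 (R 4.3.3) with a variance trend on log2(normalized count + 1), a scale that understates the change of low genes. The test was two-sided with Benjamini-Hochberg adjustment over all genes and a threshold of 0.05. edgeR 4.0.16 and DESeq2 1.42.0 were run on the recovered reads as alternatives. The other alternatives were pseudocounts of 0.5 and 5, no filter or a minimum mean of 50, quantile normalization or equal library totals, a fit with no variance trend, a block for the replicate number, leaving out single libraries, and splines of 5 degrees of freedom that correct for length and GC content of the longest transcript. Running the length correction and DESeq2 with the library labelled KOb/c replicate 2 left out was added after seeing the data. Positions and lengths are from GENCODE M21 (GRCm38), with 15980 symbols matched. The scripts were tested on simulated data.

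The 10 genes and all lists were chosen with earlier results of these data known. Of each pathway list, up to 4 genes are named, those with the largest log2 fold change among genes with a mean of at least 100 and groups that do not overlap, since 0 passed the threshold, and for *Igf1* and *Socs2* the 5 genes with the highest Pearson correlation over the 6 libraries. Genes outside this rule are named as such, and some results are not reported here. The samples are separate animals, so p-values measure the spread between animals. Counting errors cover the counting of reads only.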

Additional observations from a re-analysis of the deposited data

How the results depend on the processing

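Of 180 values of the 10 genes under the alternatives, 171 moved by less than 1 SD between replicates and 9 by more. *Ghr*, *Stat5a*, *Stat5b* and *Igfbp5* stayed above 0 and *Socs2* and *Igfbp4* below 0 in each of 19 settings, the values without the library labelled KOb/c replicate 2 included. *Ghr* lay between 0.08 and 0.24 and *Igfbp5* between 0.07 and 0.46. The settings gave *Igf1* between -0.28 and 0.23, *Cish* between -0.22 and 0.08, *Jak2* between -0.03 and 0.13 and *Igf1r* between -0.04 and 0.30. Their sign thus depends on the processing or on which animals are included. *Cish* was above 0 only with an animal left out, and *Igf1r* was below 0 only with the length and GC correction. The number of pathway genes past the threshold was 0 by limma and edgeR, 22 by DESeq2 and 18 by DESeq2 without the library labelled KOb/c replicate 2, and 0 with each library left out. Over all genes it was 0 by limma and edgeR, 1587 by DESeq2, 1195 by DESeq2 without the library labelled KOb/c replicate 2, 2 with the length and GC correction without the library labelled KOb/c replicate 2, and between 0 and 3 with 1 library left out. Of the 10 genes, 2 had groups that did not overlap, 3 after rescaling to equal totals, and between 2 and 7 with 1 library left out, where fewer samples make separation more frequent. The share over all genes after rescaling is not given. The cause of the other differences was not tested. With the replicate number as a block, limma called 0 genes. The labels do not say whether the numbers pair the animals. Deviations correlated by 0.227, 0.072 and -0.029 for numbers 1, 2 and 3, which cannot decide it with 3 animals per genotype. There were 3 animals per genotype, and the lowest adjusted p-value by limma was 0.0815. Counting error was at most 3.52% for the 10 genes.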
